A study of Mus musculus with 6 samples.

Results

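Cholesterol synthesis was followed through 9 genes of the pathway, Hmgcs1, Mvd, Idi1, Fdps, Fdft1, Sqle, Lss, Nsdhl and Dhcr7, in mouse liver and liver tumour. A gene counted as measured when a non-control probe carried its symbol in the probe description or through its sequence accession. This held for 6 of the 9 genes (Mvd, Fdps, Fdft1, Sqle, Nsdhl and Dhcr7), each with 1 probe, out of 9805 genes with a named probe on the arrays. Probes described by the enzyme name alone stood in for Idi1 and Lss and are given beside the 6, outside their counts. Hmgcs1 had no matched probe and is not analysed here.

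The RNA came from livers of 39-week-old mice on the C3H/HeNCrlBR background, all of them treated with diethylnitrosamine (DEN), a carcinogen used to start liver tumours. Wild-type (WT) mice and mice without the nuclear receptor CAR (CAR-KO; CAR is encoded by Nr1i3) then drank water with phenobarbital (PB), a tumour promoter that acts through CAR, and 1 group of CAR-KO mice had DEN alone. The 6 Agilent arrays of 2 colours formed 3 pairs with the dyes swapped within each pair: WT liver against CAR-KO liver (both DEN and PB), CAR-KO liver with DEN and PB against CAR-KO liver with DEN alone, and WT tumour against CAR-KO liver (both DEN and PB). The study looked for genes that CAR regulates and that are induced as liver tumours develop. CAR-KO liver with DEN and PB was thus on every array, and no CAR-KO tumour and no untreated liver was compared. The labels give total liver or tumour RNA, and no number of animals, pooling, sex, dose or design of the knockout. Whether the dye-swapped arrays used the same extracts is also not given, so p-values measure only the spread between arrays, which may be technical.

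Cells make cholesterol from acetyl-CoA. Acetyl-CoA is built into mevalonate, which is phosphorylated and decarboxylated to isopentenyl units; these are joined into farnesyl diphosphate and then squalene, squalene is oxidised and closed into lanosterol, and a series of demethylations, reductions and shifts of double bonds turns lanosterol into cholesterol. The genes are known to be transcribed together under the factor SREBP2, encoded by Srebf2, which leaves the endoplasmic reticulum when sterols are low and which INSIG proteins hold back when sterols are high. Liver is a main site of this synthesis, and it also takes up cholesterol from lipoproteins and turns it into bile acids.

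Median signals were 186.5 to 493.5 in Cy3 and 129.4 to 417.9 in Cy5, and 84.4% to 98.7% of the spots of a channel stood well above background. Array 2 of the tumour pair stood apart, with a median local background of 288 in Cy3 and 299 in Cy5 against 53 to 62 on the other 5 arrays, and was read with a later version of the scanner software. The labels were checked with Cyp2b10, the classical PB-induced gene that needs CAR. Its log2 ratio was 1.89 ± 0.16 (2 arrays, SE from the fit to all 6 arrays) in WT over CAR-KO liver (limma adjusted p = 0.00746). In CAR-KO liver with PB over no PB it was 0.01 ± 0.16. Nr1i3 itself had ratios of 1.08 and 0.49 on the 2 arrays of WT over CAR-KO liver (adjusted p = 0.412), and the place of its probe relative to the deleted part is not known. All 7 measured hepatocyte markers were well above background in both channels of all 6 arrays.

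In WT tumour, 5 of the 6 measured genes were about 2-fold above CAR-KO liver: Sqle, Nsdhl, Fdps, Mvd and Fdft1, which lie between mevalonate and the sterol ring and, with Nsdhl, in the trimming of the ring. The sixth, Dhcr7, the last reductase of the pathway, had a smaller ratio that missed the threshold. None of the 6 was called lower, the ratio was above 0 on both tumour arrays for all 6, and the median log2 ratio was 0.99. Over all 20744 probes tested in this comparison, 2.53% were called higher and 0.839% lower, and the median log2 ratio was -0.01. The genes were chosen with earlier results of these data known, so setting them beside all probes is a description and not a test. A call is an adjusted p under 0.05 (Benjamini-Hochberg over all probes) in limma's moderated test on the 6 arrays together, and a log2 ratio of 1 is a doubling. Signals below are normalized intensities in arbitrary units, comparable between samples for 1 gene but not between genes.

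Mvd encodes mevalonate diphosphate decarboxylase, which makes isopentenyl diphosphate. Its signal was 559 in tumour and 358 in CAR-KO liver on array 1, and 516 and 212 on array 2. Tumour was the higher sample both times, by unequal amounts (log2 ratios 0.64 and 1.29). The fitted log2 ratio was 0.96 ± 0.18 (SE, 2 arrays), a fold of 1.95 with a 95% interval of 1.47 to 2.59 (limma adjusted p = 0.0316). Fdps, farnesyl diphosphate synthase, joins the isopentenyl units and stands where the sterol branch parts from protein prenylation, dolichol and ubiquinone. It read 4155 in tumour against 2325 in CAR-KO liver on array 1 and 10494 against 4591 on array 2. The level of both samples was higher on array 2, while the ratios stayed close (0.84 and 1.19), and the fitted fold was 2.02 (1.54 to 2.66; limma adjusted p = 0.0228).

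Fdft1 encodes squalene synthase, the first enzyme committed to sterols. Its signals were 6206 against 3401 on array 1 and 5907 against 3157 on array 2, so that the arrays gave nearly the same ratio (0.87 and 0.90). The fitted fold was 1.85 (1.42 to 2.40; limma adjusted p = 0.0309). Sqle encodes squalene epoxidase, an oxygen-dependent step that is a known control point of the pathway. Tumour read 939 against 457 on array 1 and 954 against 444 on array 2. This was the closest agreement in level of the 6 genes in tumour, with log2 ratios of 1.04 and 1.10 and a fitted fold of 2.10 (1.65 to 2.68; limma adjusted p = 0.0117).

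Nsdhl is an X-linked gene for a sterol dehydrogenase that helps remove the methyl groups from the ring. Its probe was the dimmest of the 6, with 158 in tumour against 78.3 in CAR-KO liver on array 1 and 254 against 122 on array 2, all 4 well above background. Tumour was again the higher sample on both arrays (log2 ratios 1.01 and 1.06), with a fitted fold of 2.05 (1.55 to 2.71; limma adjusted p = 0.0228). Dhcr7, 7-dehydrocholesterol reductase, makes cholesterol itself and consumes the precursor of vitamin D. It read 1486 against 1111 on array 1 and 1103 against 924 on array 2. The log2 ratios were 0.42 and 0.26, and the fitted fold of 1.26 had an interval of 0.991 to 1.61 (limma adjusted p = 0.226), which lies below the point estimates of the other 5 genes. The difference between Dhcr7 and the other genes was not tested.

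**Figure D1:**
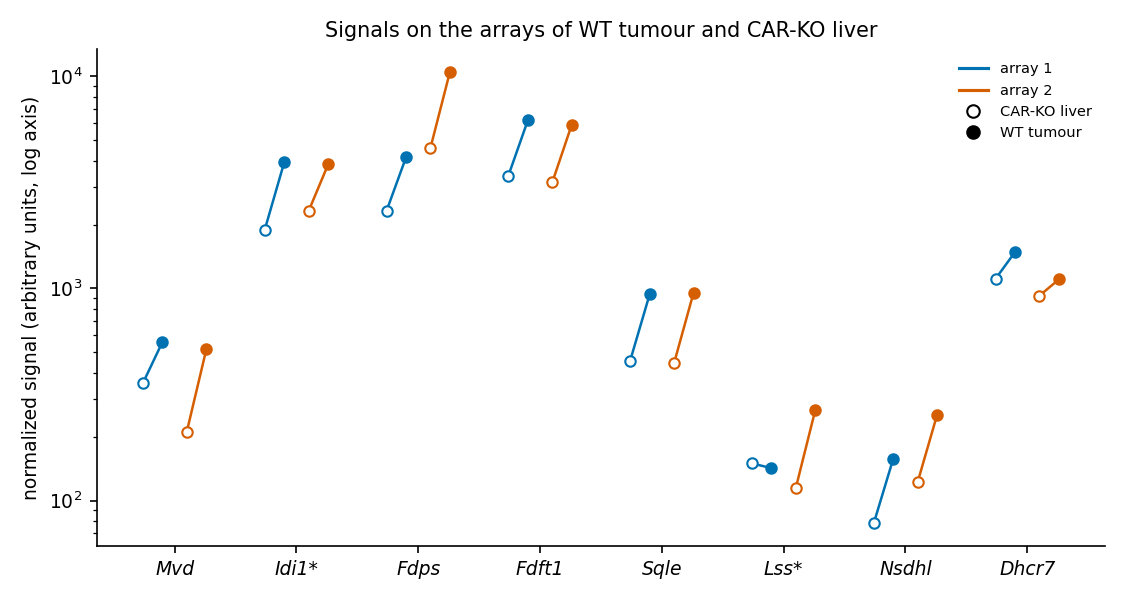
Normalized signal (arbitrary units, log axis) of each gene in CAR-KO liver (open circles) and WT tumour (filled circles) on array 1 (blue) and array 2 (orange) of the tumour pair; genes with an asterisk are named by an enzyme description. The line rises for all 6 genes measured by symbol on both arrays, by least for Dhcr7, and falls only for Lss on array 1.

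The genes named by description ran from near the same size to no clear value. Idi1, isopentenyl diphosphate isomerase, read 3935 in tumour against 1894 in CAR-KO liver on array 1 and 3840 against 2317 on array 2. Both ratios were positive (1.06 and 0.73), but the fitted log2 ratio of 0.89 ± 0.22 missed the threshold (limma adjusted p = 0.0826). That SE came from the fit to all 6 arrays, and the ratios of Idi1 for PB over no PB were 0.09 and -1.33. Lss, lanosterol synthase, which closes the ring, read 142 against 150 on array 1 and 268 against 115 on array 2. The arrays disagreed in direction, 11 of its 12 channels over the 6 arrays were well above background, and the fitted value was 0.57 ± 0.25 (limma adjusted p = 0.216).

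The 5 calls rested on the processing and on the arrays that set the spread. The direction was positive for all 6 genes under all 19 alternatives that gave a value, but the number called ran from 0 to 6, and it was 0 under 8 of them. Not all of the 19 are separate. Leaving out array 1, array 2 or both arrays of CAR-KO liver with PB over no PB gave the same tumour calls. The same was true of the WT liver pair. The 5 calls were all lost with the deposited ratios, with no normexp offset, with scaling between arrays, with array weights and on the tumour pair alone. Over all 20744 probes, 0 were called with the deposited ratios or with scaling, so no gene passed there. The calls over all probes were 8 higher and 0 lower with no offset, and 53 and 9 on the tumour pair alone. With array weights they were 194 and 42. Leaving out array 1 or array 2 of CAR-KO liver with PB over no PB left 0 calls among the 6 genes. Over all probes, 218 were then higher and 67 lower. Such a step leaves the tumour ratios as they are and changes the estimate of the spread and its degrees of freedom. Leaving out either array of the WT liver pair left 2 (Sqle and Nsdhl), with 318 probes higher and 100 lower over all probes. Without tumour array 1 there were 3 calls (Mvd, Sqle and Nsdhl), and without tumour array 2, the one with the high background, the same 5 genes were called, while the calls over all probes went to 1799 higher and 2909 lower. Median centring in place of loess called all 6 higher, with 2370 probes higher and 1763 lower over all probes against 524 and 174.

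**Figure D2:**
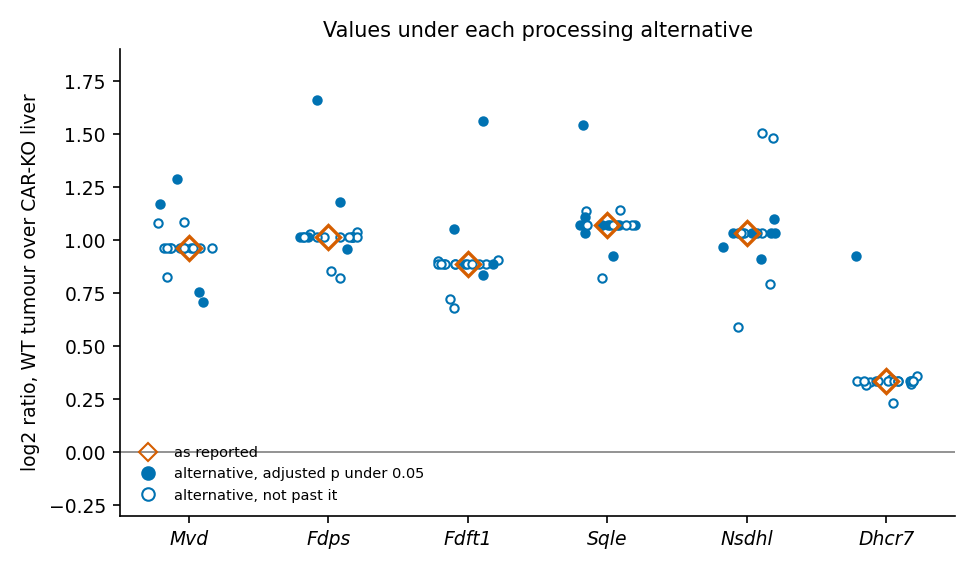
Log2 ratio of WT tumour over CAR-KO liver for the 6 genes as reported (orange diamonds) and under each of 19 processing alternatives (blue circles, filled where the adjusted p was under 0.05); sideways scatter within a gene has no meaning. All values lie above 0, from 0.23 for Dhcr7 to 1.66 for Fdps, and open circles show how often a value missed the threshold.

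Stretches just before the start of transcription show the letters that these genes share. The RefSeq promoter table (build GRCm38.p6) held windows for 6 of the 9 genes (Hmgcs1, Mvd, Idi1, Lss, Nsdhl and Dhcr7, the last with 3 start sites). In the 250 bases upstream, on both strands, the NF-Y box CCAAT was present for all 6 genes and in 6 of their 8 windows, against 33.8% of all 32851 windows in the table. The Sp1 box GGGCGG was present for the same 6 genes, in 7 of 8 windows, against 32.7%. The sterol response element core TCACNCCAC, the letters that SREBP is known to bind, and the shorter core CACNCCAC, which lies within it, were found for Hmgcs1 only, against 1.05% and 5.29% of windows. A match is a description of letters, and no match says only that these letters are not in this window. The 250 bases upstream are given 5′ to 3′ in the gene's direction for Mvd and Nsdhl, both called in tumour, for the third start site of Dhcr7, which was not called, and for Hmgcs1, which holds the sterol response core. Capitals mark the NF-Y box, which appears as its reverse complement where it lies on the other strand, and in Hmgcs1 also the sterol response core. They lie at chr8:122443423-122443672 (minus strand), chrX:72918271-72918520 (plus), chr7:143829964-143830213 (plus) and chr13:119690101-119690350 (plus).
Mvd: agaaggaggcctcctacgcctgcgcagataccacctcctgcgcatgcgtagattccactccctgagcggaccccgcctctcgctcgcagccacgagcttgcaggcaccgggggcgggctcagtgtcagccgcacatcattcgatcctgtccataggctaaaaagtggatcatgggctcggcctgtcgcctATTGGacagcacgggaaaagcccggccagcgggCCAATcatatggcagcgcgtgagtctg
Nsdhl: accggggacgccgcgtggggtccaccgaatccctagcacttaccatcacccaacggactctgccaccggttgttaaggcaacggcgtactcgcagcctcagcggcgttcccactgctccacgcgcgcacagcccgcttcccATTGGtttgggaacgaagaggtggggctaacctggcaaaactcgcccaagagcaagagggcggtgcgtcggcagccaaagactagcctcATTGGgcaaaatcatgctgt
Dhcr7: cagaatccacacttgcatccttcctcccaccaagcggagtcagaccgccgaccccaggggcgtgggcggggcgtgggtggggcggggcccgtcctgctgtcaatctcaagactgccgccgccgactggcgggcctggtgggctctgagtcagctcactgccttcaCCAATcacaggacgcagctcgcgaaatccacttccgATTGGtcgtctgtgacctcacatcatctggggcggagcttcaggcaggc
Hmgcs1: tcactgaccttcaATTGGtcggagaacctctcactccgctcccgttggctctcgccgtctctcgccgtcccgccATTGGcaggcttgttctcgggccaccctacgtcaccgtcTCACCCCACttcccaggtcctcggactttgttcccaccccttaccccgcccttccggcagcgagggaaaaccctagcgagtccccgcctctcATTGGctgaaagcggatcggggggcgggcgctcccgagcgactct
The boxes started 60 and 27 bases before the start in Mvd, 109 and 20 in Nsdhl, 85 and 49 in Dhcr7, and 237, 176 and 45 in Hmgcs1, whose sterol response core began at 137.

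Among the other enzymes of the pathway given here, none was called in either direction by limma, beside 2.53% higher and 0.839% lower over all probes. This list held 10 measured members, of which 8 had fitted ratios above 0, with a median log2 ratio of 0.41. Just before Mvd, the 2 mevalonate kinases had positive ratios on both arrays without passing the test: Mvk 0.55 and 0.80 (adjusted p = 0.0729), Pmvk 0.43 and 0.49 (adjusted p = 0.36). Among the enzymes of the ring, Ebp, the sterol isomerase, had ratios of -0.06 and -0.71 (adjusted p = 0.233), and Cyp51, the first demethylase, had -0.48 and 0.67 (adjusted p = 0.753). Hsd17b7, which acts with Nsdhl in removing methyl groups, had 1.27 and 0.37 (adjusted p = 0.148).

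**Figure D3:**
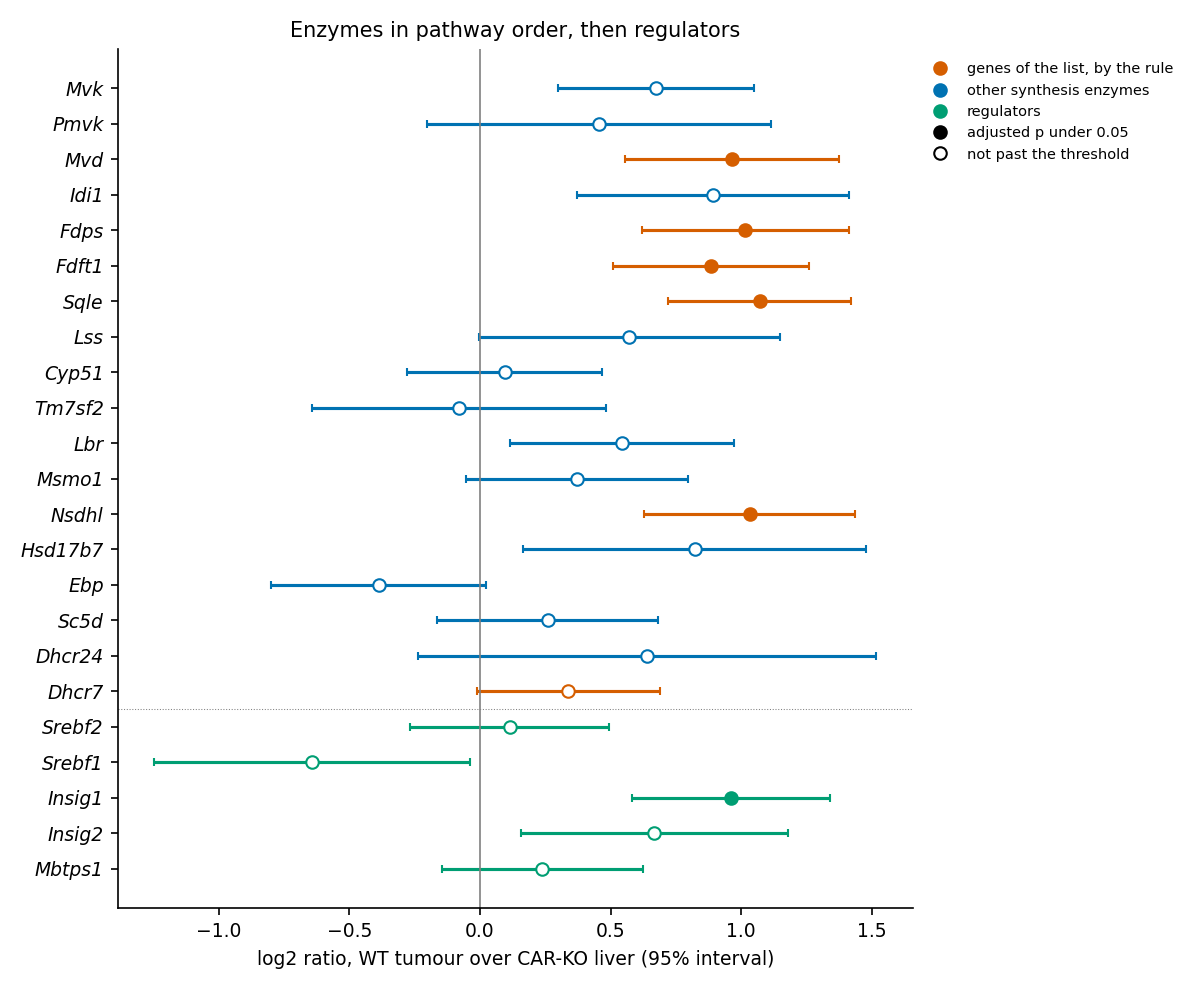
Fitted log2 ratio of WT tumour over CAR-KO liver with its 95% interval for the enzymes given here in pathway order, from Mvk to Dhcr7, and below the dotted line for regulators; filled points had an adjusted p under 0.05. Filled points are Mvd, Fdps, Fdft1, Sqle, Nsdhl and Insig1, and the points of Cyp51 (0.09), Tm7sf2 (-0.08) and Srebf2 (0.11) lie near 0.

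Of the 5 measured regulators of the pathway, out of 7 listed, 1 was called higher and 0 lower, 4 had fitted ratios above 0, and the median log2 ratio was 0.24. The called one, Insig1, which holds SREBP in the endoplasmic reticulum and is itself an SREBP target, read 804 in tumour against 466 on array 1 and 1556 against 707 on array 2. Its fitted log2 ratio was 0.96 ± 0.16 (limma adjusted p = 0.0237). Insig2, which has the same role, had 0.79 and 0.54 (adjusted p = 0.139). Srebf2, the gene for SREBP2, had ratios of -0.05 and 0.27 (fitted 0.11, 95% interval -0.27 to 0.49). Srebf1, whose products mainly drive fatty acid synthesis, had -0.67 and -0.61 (adjusted p = 0.192). None of the 5 genes given here of sterol uptake and transport was called (limma, median 0.32). The same held for the 8 measured genes of the non-sterol branches, which lead to prenylation, dolichol and ubiquinone (median 0.18). Over all probes 2.53% were called higher and 0.839% lower, so no call in lists this short is near that share.

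Genes that use or remove sterols had no higher call, which is near the share over all probes in this comparison (2.53% higher and 0.839% lower). Of 15 measured genes of sterol export, esterification and conversion, 0 were higher and 1 was lower (median -0.12). The lower one was Cyp7b1, an oxysterol hydroxylase of the alternative bile acid route, with log2 ratios of -1.64 and -1.56 (limma adjusted p = 0.0049). Of 3 ketogenesis genes given here, Bdh1 was higher (0.75 ± 0.15, adjusted p = 0.0456) and 0 were lower, with a median of -0.17. Fatty acid synthesis, which SREBP1 is known to drive, had 4 higher and 0 lower of 12 (median 0.46): Elovl6 1.53, Fasn 1.33, Me1 1.10 and Gpam 1.04 (adjusted p = 0.00365 to 0.0482). Acaca, the carboxylase at the head of that route, had -1.01 and 0.20.

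Tumour RNA also differed from CAR-KO liver in genes of cell division and in markers of liver cells, and the part of these differences in the cholesterol values was not tested. The share over all probes in this comparison was 2.53% called higher and 0.839% lower. Of 15 cell cycle genes, 5 were higher and 0 lower (median 0.71), led by Mki67 at 1.75, Plk1 at 1.24, Mcm6 at 1.18 and Rrm2 at 1.14. Of 7 hepatocyte markers, 3 were lower (Ass1 -1.47, Alb -1.03 and Tat -1.01) and 0 higher. All 7 fitted ratios were negative with a median of -0.63, opposite in sign to that of the synthesis genes. All 7 were also negative in WT liver over CAR-KO liver (median -0.27), with 0 called. In tumour over WT liver, 5 were negative and 2 positive (median -0.36), again with 0 called. The summed hepatocyte signal was 89426 in tumour against 186464 in CAR-KO liver on array 1 and 112086 against 168875 on array 2. That sum is mostly the signal of Alb and Ahsg, the brightest of the 7 (mean log2 intensity 15.9 and 15.5). Its log2 ratio changed sign between the arrays of the WT liver pair (0.15 and -0.52) and of PB over no PB (-0.82 and 0.19). In bulk RNA, fewer cells of a type and less RNA per cell cannot be told apart. Among markers of other cells, Krt19 of bile duct cells was higher (1 of 5), as was Cela1 of the pancreatic acinus (1 of 5). Dcn of fibroblasts (1 of 4), Hba-a1 of erythroid cells (1 of 3) and Tnnc2 and Mylpf of skeletal muscle (2 of 4) were lower. Each of these lists was mixed in sign. Fitted ratios were above 0 for 3 of 5 bile duct, 2 of 5 pancreatic and 1 of 4 fibroblast markers (medians 0.03, -0.03 and -0.18). The same held for 1 of 3 erythroid and 1 of 4 muscle markers. Tnnc2 had -1.83 in this comparison, -1.78 on the WT liver pair (adjusted p = 0.00746), 1.78 for PB over no PB (adjusted p = 0.0937) and -0.05 in tumour over WT liver, so CAR-KO liver with DEN and PB, the sample on every array, was the high one for this muscle gene each time. None of the endothelial, macrophage, lymphocyte, neutrophil and adipocyte markers was called.

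Set against WT liver instead, with both measured relative to CAR-KO liver, tumour kept ratios above 0 for all 6 genes, but none passed the test. This comparison is indirect, as the difference of the tumour and the WT liver ratios, and both share CAR-KO liver. The log2 values were 1.04 for Nsdhl, 0.997 for Fdps, 0.87 for Mvd, 0.78 for Sqle, 0.59 for Fdft1 and 0.28 for Dhcr7, with SEs of 0.21 to 0.25 and a median of 0.83. The adjusted p ran from 0.353 to 0.687 (limma), and 5 of the 6 had an unadjusted p under 0.05. Of all 20743 probes tested here, 0% were called higher and 0% lower, and 1737 had an unadjusted p under 0.05, so no gene could be told from the rest by a call. The unadjusted 95% intervals of the log2 values lay above 0 for 5 genes, such as 0.47 to 1.61 for Nsdhl and 0.44 to 1.56 for Fdps, and ran from -0.22 to 0.77 for Dhcr7. Without tumour array 2, Fdps (adjusted p = 0.0191) and Nsdhl (adjusted p = 0.0282) were called, as were 426 probes higher (2.06% of those tested) and 1738 lower. Tumour is then 1 array in 1 dye orientation, assumed to vary like the other pairs. Insig1 had 0.51 ± 0.23 (adjusted p = 0.596).

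In liver outside tumours, WT mice did not differ from CAR-KO mice in these genes by a call. The comparison asked which genes depended on CAR under DEN and PB. None of the 6 genes was called in either direction by limma, and none had an unadjusted p under 0.05, while 0.0916% of 20743 probes were called higher and 0.00964% lower. Fdft1 and Sqle had the highest values, both 0.29, with ratios of 0.42 and 0.17 for Fdft1 and 0.29 on both arrays for Sqle. Mvd had 0.07 and 0.11, and Fdps, Nsdhl and Dhcr7 had opposite signs on the 2 arrays, such as 0.24 and -0.20 for Fdps. The median log2 ratio was 0.08, against -0.02 over all probes. The 95% intervals of the 6 genes together spanned -0.41 to 0.67, so that a doubling lay outside each of them, while a change of the size estimated for Sqle or Fdft1 was not detectable with 2 arrays. Idi1 (-0.21 and 0.10) and Lss (0.20 and 0.38), named by description, were not called. Srebf2 had -0.05 ± 0.16 and Insig1 0.45 ± 0.16, neither of them past the threshold (adjusted p = 1). Insig1 was positive on both arrays (0.39 and 0.50), with an unadjusted 95% interval of 0.07 to 0.83 (limma unadjusted p = 0.0265). Of the 20743 probes, 471 had an unadjusted p under 0.05.

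**Figure D4:**
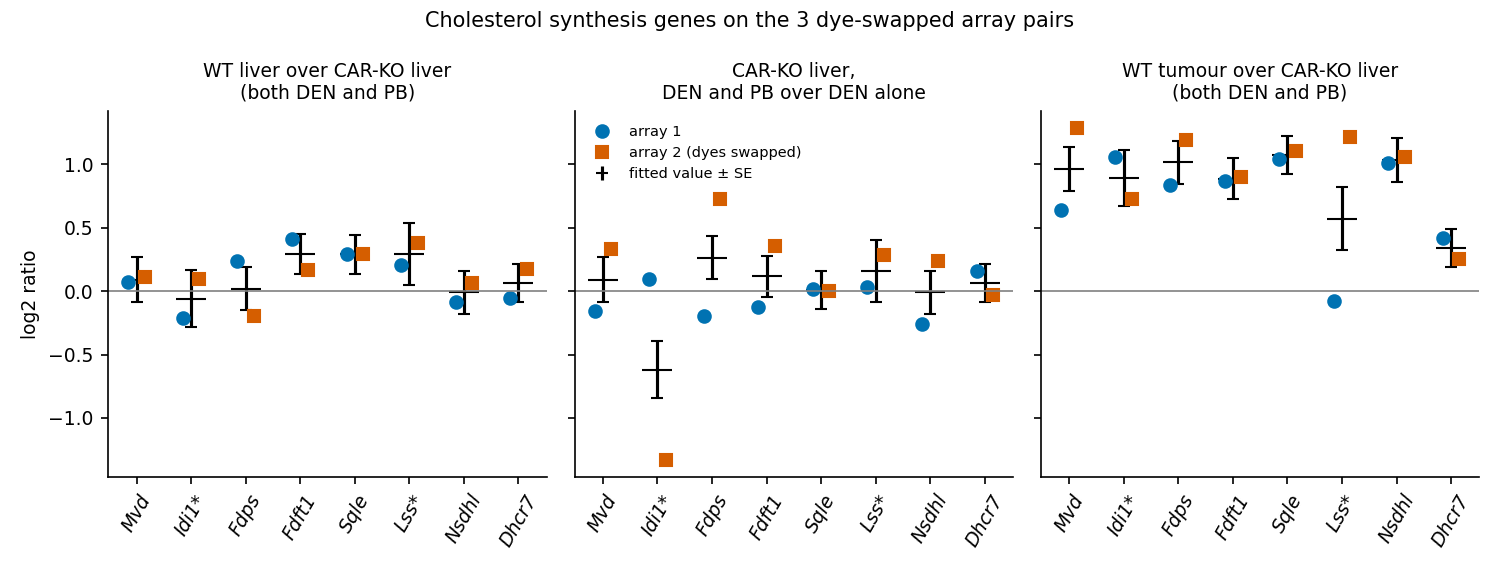
Log2 ratios of 8 genes on array 1 (blue circles) and array 2 (orange squares) of each dye-swapped pair, with the fitted value ± SE (black); the 3 panels are WT liver over CAR-KO liver, CAR-KO liver with PB over no PB, and WT tumour over CAR-KO liver, and an asterisk marks genes named by an enzyme description. The arrays of the 6 genes measured by symbol run from -0.20 to 0.42 in the first panel and from -0.26 to 0.73 (Fdps, array 2) in the second, and 5 of the genes lie between 0.64 and 1.29 in the tumour panel, so the last 2 ranges overlap.

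Phenobarbital given to mice without CAR came with no call among these genes either. This comparison asked what PB did beyond CAR, in CAR-KO liver with DEN and PB over CAR-KO liver with DEN alone. None of the 6 genes was called by limma or had an unadjusted p under 0.05, and 0% of 20742 probes were called in either direction (565 had an unadjusted p under 0.05). The 2 arrays had opposite signs for 5 of the 6 genes, against 3 in WT over CAR-KO liver and 0 in the tumour pair. Of these, 4 were below 0 on array 1 and above it on array 2, as in Fdps (-0.20 and 0.73), Fdft1 (-0.13 and 0.36), Mvd (-0.16 and 0.34) and Nsdhl (-0.26 and 0.24). Sqle stayed at 0.02 and 0.00, and Dhcr7 had 0.16 and -0.03. The median of the fitted values was 0.08, and the intervals of the 6 genes together spanned -0.41 to 0.66. Idi1 gave the widest split of the 8 genes. Its signal was 1997 with PB and 1874 without on array 1, and 1811 with PB and 4563 without on array 2. The DEN-alone sample of array 2 was the high one, and the ratios of 0.09 and -1.33 gave a fitted value of -0.62 ± 0.22 that was not called (adjusted p = 1). Insig1 had -0.12 and -0.11.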

How the data were processed

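The members and gene lists were chosen with earlier results of these data known. Per the file headers, the authors' deposited scanner files hold mean signals and local backgrounds as intensity without normalization, a log10 ratio of processed signals, and flags of other kinds; Feature Extraction 7.1.1 read 5 arrays and 7.5.1 read tumour array 2, while the submitters' processing notes name 7.5. The genome build is not given in the sources used here. Ratios were turned by the dye labels. Here, signals were corrected with normexp (offset 50), normalized by loess within arrays, averaged per probe (outlier-flagged spots missing) and fitted with limma 3.58.1 (R 4.3.3) on all 6 arrays with 3 contrasts and a dye effect, leaving 2 residual degrees of freedom plus 5.48 prior ones. Probes with a channel well above background on 2 arrays were tested. Printed signals were also scaled across arrays (Aquantile). A gene with several probes was given by its brightest; named were the 9 genes, Srebf2, Insig1, Nr1i3, Cyp2b10 and up to 4 called members per list. Genes named for contrast among uncalled list members (Mvk, Pmvk, Ebp, Cyp51, Hsd17b7, Insig2, Srebf1, Acaca, Tm7sf2) were chosen after their values were seen. Some genes of the lists are not reported here. The fit was tested on simulated data, and no result of that test is given here. Of 20868 probes, 9965 had a symbol. The number of arrays limits precision. Alternatives are in the closing section.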

Additional observations from a re-analysis of the deposited data

How the results depend on the processing

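For WT tumour over CAR-KO liver, the number of the 6 genes called higher went from 5 to 0 with the deposited ratios, normexp without offset, scaling between arrays, array weights, the 2 arrays of the pair alone, or without either array of CAR-KO liver with PB over no PB. It was 2 with no dye effect or without array 1, array 2 or both arrays of WT over CAR-KO liver, and 0 to 5 with 1 array left out. Against WT liver it was 0 to 2 with 1 array left out. The genes' median for tumour over CAR-KO liver (0.99) was 1.42 with median centring, 0.77 with no background subtraction and 0.81 with scaling; against WT liver (0.83) it was 1.30, 0.62 and 0.59. For WT over CAR-KO liver (0.08) it was 0.095 with the deposited ratios, 0.00056 with median centring, 0.10 with scaling and -0.023 to 0.25 with 1 array left out. Leaving out arrays changed the degrees of freedom and the estimate of the spread, and for arrays of the compared pair also the ratios. Which of these moved the calls was not tested, nor was the cause under the other settings. Over the 6 genes with Idi1 and Lss, there were 588 values of a gene in a comparison under an alternative. Of these, 506 kept direction and call, 55 lost and 6 gained a call, and 21 changed sign without a call in either. Among the gained calls, 2 were of Idi1 and 1 of Lss, in tumour over CAR-KO liver. Alternatives that repeat a fit are each counted. Adjusted p values for tumour over CAR-KO liver ran from 0.00159 to 0.219 for Sqle, 0.00713 to 0.252 for Nsdhl, 0.00243 to 0.261 for Fdps, 0.00226 to 0.265 for Fdft1 and 0.00621 to 0.297 for Mvd. Over all probes, calls in this comparison ran from 0 to 2370 higher and 0 to 2909 lower, for WT over CAR-KO liver from 0 to 76 and 0 to 20, for PB over no PB from 0 to 6 higher and 0 lower, and for tumour over WT liver from 0 to 426 and 0 to 1738. Averaging the probes of a gene changes nothing here, since each of the 6 has 1 probe. No paired analysis was possible because the labels carry no replicate numbers; the 2 samples of an array are already paired in its ratio. Signal over background limits dim probes: Nsdhl in tumour over CAR-KO liver was 0.59 with no background subtraction and 1.51 with no offset.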
